A study of Mus musculus with 100 samples.

Results

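The binding of PGC1β to chromatin after stimulation with Kdo2 lipid A (KLA) in the presence of dimethyl sulfoxide (DMSO) was measured in mouse bone marrow-derived macrophages (BMDMs). The comparison used 4 of the 100 samples of the series, chosen by their labels as the groups DMSO_KLA and DMSO_Veh, with 2 biological replicates each, over 53474 PGC1β peaks. All 4 libraries came from wild-type cells of C57Bl6 mice, differentiated with M-CSF and serum-starved, and all received DMSO, the solvent of an ERK inhibitor used elsewhere in the same experiment. The DMSO_KLA group also received KLA and the DMSO_Veh group did not. The labels of these 4 libraries give no time, and the peak set that was built for the experiment names KLA for 6 h. Marrow cells cultured in this way are an in vitro model of macrophages.

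PGC1β is a transcriptional coactivator without a DNA-binding domain of its own that is brought to chromatin by other proteins, and it is best known for raising the expression of genes of mitochondrial respiration. KLA consists of lipid A and the Kdo sugars joined to it in bacterial lipopolysaccharide, and it activates TLR4. In macrophages TLR4 signals through NFκB, the MAP kinases and interferon regulatory factors to inflammatory cytokines, chemokines, lipid mediators and interferon-stimulated genes, mostly through enhancers that lie away from the promoters.

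The sequences of 5 windows at which PGC1β rose and of 3 at which it fell are shown here because their values are described below. Each is the 200 bp around the centre of a peak, on the plus strand of mm10, and capitals mark matches on either strand to NFκB (GGANTTTCC or GGGANTTCC), AP-1 (TGANTCA), the interferon response half-site (GAAANNGAA), PU.1 (GAGGAAGT), C/EBP (TTGCNNAA), the octamer (ATTTGCAT) or TGATGCA.
Ptgs2os2, chr1:150197917-150198116: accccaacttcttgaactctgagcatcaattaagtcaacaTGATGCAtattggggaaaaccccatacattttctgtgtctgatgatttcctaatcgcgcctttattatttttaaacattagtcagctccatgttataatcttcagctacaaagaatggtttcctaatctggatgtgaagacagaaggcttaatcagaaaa
Il6, chr5:29880166-29880365: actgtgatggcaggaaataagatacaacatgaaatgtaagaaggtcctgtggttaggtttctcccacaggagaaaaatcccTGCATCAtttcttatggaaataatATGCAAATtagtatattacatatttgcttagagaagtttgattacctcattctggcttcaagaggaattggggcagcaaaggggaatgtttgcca
Il1bos, chr2:129363440-129363639: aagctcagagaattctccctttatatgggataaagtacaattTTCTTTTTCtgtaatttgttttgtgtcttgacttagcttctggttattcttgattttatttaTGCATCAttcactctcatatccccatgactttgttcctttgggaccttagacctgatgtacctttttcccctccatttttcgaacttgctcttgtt
Il12a, chr3:68633642-68633841: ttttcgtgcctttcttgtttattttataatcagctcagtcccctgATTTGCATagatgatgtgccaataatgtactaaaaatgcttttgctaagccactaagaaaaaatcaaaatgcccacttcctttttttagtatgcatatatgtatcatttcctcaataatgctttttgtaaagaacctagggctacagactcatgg
Acod1, chr14:103058472-103058671: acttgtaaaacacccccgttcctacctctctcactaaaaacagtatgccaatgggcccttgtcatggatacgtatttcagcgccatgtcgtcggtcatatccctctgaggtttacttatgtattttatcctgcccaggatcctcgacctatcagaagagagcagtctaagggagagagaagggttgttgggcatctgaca
Klf4, chr4:55741467-55741666: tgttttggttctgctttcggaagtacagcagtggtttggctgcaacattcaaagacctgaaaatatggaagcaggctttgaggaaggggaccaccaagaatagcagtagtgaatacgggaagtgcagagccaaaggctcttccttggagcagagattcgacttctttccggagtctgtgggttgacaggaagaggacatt
3300005D01Rik, chr17:5806120-5806319: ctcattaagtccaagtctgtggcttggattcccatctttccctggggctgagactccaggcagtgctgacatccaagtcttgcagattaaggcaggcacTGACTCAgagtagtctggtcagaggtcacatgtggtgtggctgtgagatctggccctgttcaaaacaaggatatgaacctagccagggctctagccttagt
Slc7a13, chr4:19856193-19856392: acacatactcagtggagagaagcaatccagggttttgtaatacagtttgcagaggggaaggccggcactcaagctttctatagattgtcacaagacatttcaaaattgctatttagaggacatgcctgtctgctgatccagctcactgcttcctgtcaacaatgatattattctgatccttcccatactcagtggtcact
The first 4 windows were intergenic, AT-rich and held from 0 to 2 CpG dinucleotides, and the Il6 window held TGATGCA 19 bp before its centre and an octamer 5 bp after it. The Ptgs2os2 and Il1bos windows also held TGATGCA and the Il12a window an octamer. The Acod1, Klf4 and Slc7a13 windows held none of these motifs. The 3300005D01Rik window held an AP-1 match 1 bp from its centre.

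The libraries held 12.3 M (Veh replicate 1), 6.86 M (Veh replicate 2), 5.07 M (KLA replicate 1) and 6.72 M tags (KLA replicate 2), and levels below are tags per 10 M of a library's total. The share of tags inside the peaks was 16.9% and 21.4% in the Veh libraries and 28.1% and 26.6% in the KLA libraries. A peak with 3 tags, the limit that a count of 0 allows, stands for 2.44 and 4.37 tags per 10 M in Veh and 5.92 and 4.47 in KLA. Over all peaks the log2 levels of the replicates correlated at 0.80 in Veh and 0.66 in KLA, against 0.26 to 0.38 between groups. The 8 macrophage markers Adgre1, Csf1r, Cd68, Itgam, Spi1, Mrc1, Lyz2 and Fcgr1 carried 66 peaks. Of the other markers, 4 of 6 for T cells carried 8 peaks, 3 of 6 for B cells 15, 4 of 6 for neutrophils 4 and 3 of 6 for fibroblasts 6.

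More of the tested peaks gained PGC1β than lost it. The peaks were merged from sets named for the untreated condition, for KLA and for the ERK inhibitor with KLA. The untreated set alone gave 10880 peaks, the KLA set alone 7531, the ERK inhibitor set alone 5571 and both of the latter 5437. The balance of gains and losses therefore also depends on how the peak list was built. After KLA 8761 of the 53474 peaks were higher (16.4%) and 659 were lower (1.23%), at an adjusted p-value under 0.05 in edgeR's quasi-likelihood test and more than a 2-fold change. The gained peaks had 3922 different nearest genes of 13866 and the lost peaks 554, with 185 genes on both lists. At gained peaks the median level was 10.6 and 10.2 tags per 10 M in the Veh libraries and 67.1 and 64.0 in the KLA libraries, and 244 of them held no tag in either Veh library. At lost peaks the median was 37.4 and 53.9 in Veh and 5.92 and 5.95 in KLA, and 136 held no KLA tag. Both KLA libraries lay above both Veh libraries at 24203 peaks (45.3%, against 16.4% called higher), and below them at 7835 (14.7%, against 1.23% called lower).

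**Figure D1:**
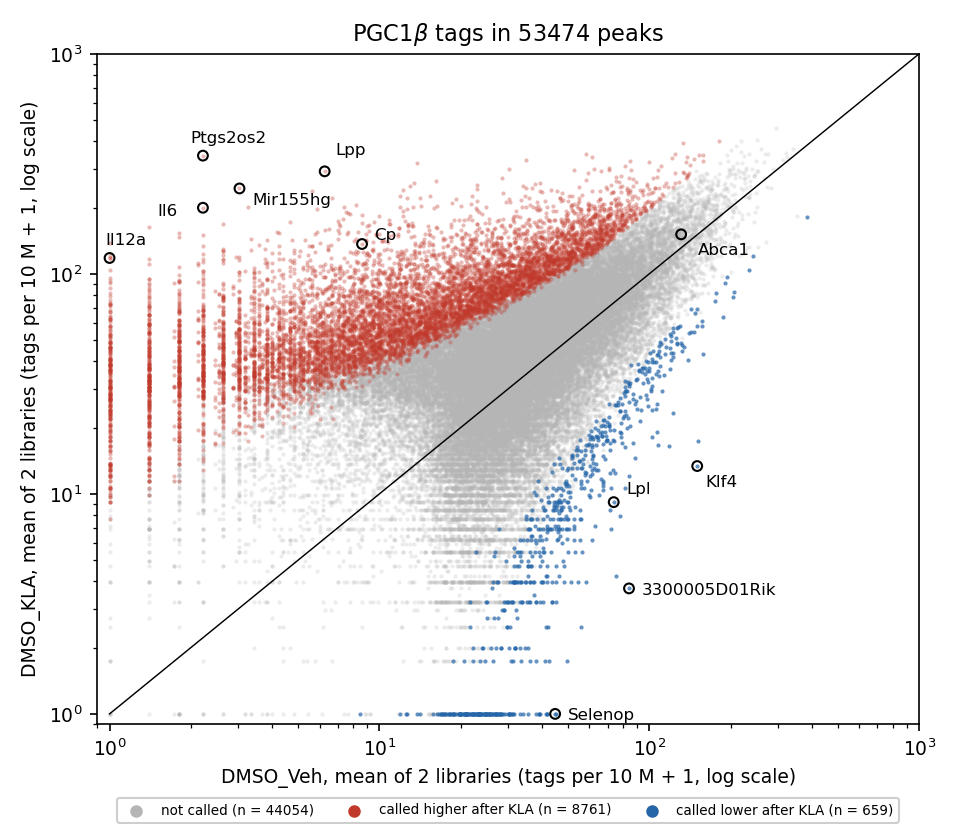
PGC1β level of each of 53474 peaks, as the mean of 2 DMSO_Veh libraries (horizontal axis) against the mean of 2 DMSO_KLA libraries (vertical axis), both in tags per 10 M plus 1 on log scales, with the line of equal level. Red points are the 8761 peaks called higher, blue points the 659 called lower, and the circled peaks are described in the text.

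The direction of the bulk of the peaks depended on the scaling. The median log2 fold change of all peaks was 0.45 with library totals and 0.01 when libraries were scaled by edgeR's TMM factors, which set the bulk of the peaks to no change, and 4658 peaks were then higher and 1543 lower. The higher share of all calls was 93.0% with totals and 75.1% with TMM, and all 4658 and all 659 calls were common to both scalings. With library totals the median log2 fold change was 0.31 without Veh replicate 1 and 0.62 without Veh replicate 2. It was 0.41 without KLA replicate 1 and 0.49 without KLA replicate 2. These fits leave 1 library in a group, and in each of them most of the lost peaks were no longer called lower. Gained calls were kept more often. Fold changes below use library totals.

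The 12 gained peaks of lowest p-value, 1 per gene, were nearest to Ptgs2os2, Lpp, Acod1, 1700016G22Rik, Il1bos, Il6, Mir155hg, Fndc3a, 1700012I11Rik, Mx1, Dtwd1 and Ccl5. The lowest p-value belonged to an intergenic peak 33.1 kb upstream of Ptgs2os2 and 98.0 kb downstream of the start of Ptgs2, the gene of cyclooxygenase 2. It held 2.44 and 0 tags per 10 M in Veh and 353 and 333 in KLA. The 2 groups were far apart, with a ratio of 219 (95% interval 74.3 to 1064, counting error only) from 3 Veh tags and an adjusted p-value of 2.29e-10. The intergenic peak 133 kb upstream of Il6, the gene of a fever-inducing cytokine, held 2.44 and 0 tags per 10 M in Veh and 223 and 174 in KLA, a ratio of 125 (42.2 to 609). At Mir155hg, the host transcript of the inflammatory microRNA miR-155, a peak 137 bp from a start site held 4.06 and 0 in Veh and 223 and 263 in KLA, an 89.8-fold difference (log2 6.49 ± 0.51, SE, n = 2 per group; adjusted p = 7.22e-09 in edgeR). All of these were near the background in Veh and among the strong peaks in KLA.

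Other peaks in the first 12 were also low before and strong after KLA. A peak 11.6 kb from the start of Acod1, which makes the antimicrobial metabolite itaconate, held 4.87 and 4.37 in Veh and 284 and 191 in KLA (48.8-fold). An intergenic peak 6.4 kb from Il1bos and 7.6 kb from Il1b, the gene of interleukin 1β, held 4.06 and 8.74 in Veh and 213 and 186 in KLA (33.1-fold). A peak in intron 8 of Lpp, which encodes a cell adhesion protein, held 3.25 and 7.29 in Veh and 304 and 278 in KLA (58.8-fold). In all 3 the lower KLA library was far above the higher Veh library.

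A peak in the second intron of Ccl5, a chemokine of T cells and monocytes, held 4.06 and 1.46 in Veh and 94.7 and 128 in KLA (34.5-fold). At Mx1, an interferon-induced antiviral GTPase, the peak at the transcription end held 7.31 and 18.9 in Veh and 227 and 214 in KLA (18.2-fold). The remaining 4 of the 12 peaks were nearest to 1700016G22Rik (88.1-fold), Fndc3a (17.5-fold), 1700012I11Rik (20.8-fold) and Dtwd1 (19.9-fold). The groups did not overlap at any of them. All 12 peaks were picked for their low p-values in these same libraries, so the separation of the groups is not independent evidence.

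Some genes gained PGC1β at many peaks. Mx1 had the most, with 29 of 35 peaks higher, followed by Tnfaip3 with 27 of 38, 1700019E08Rik with 26 of 50, Edn1 with 25 of 31 and 1700016G22Rik with 23 of 48. None of these 5 genes had a lower peak. Here and below the strongest peak of a gene is that with the highest mean level over the 4 DMSO libraries. High KLA levels help to pick it, so a rise at such a peak is not independent evidence. At the strongest peak of Tnfaip3, which encodes the NFκB inhibitor A20, the level was already 37.4 and 30.6 in Veh and rose to 341 and 317 in KLA (log2 3.25 ± 0.30). At the called peak of Edn1, the gene of endothelin 1, it rose from 11.4 and 10.2 to 152 and 168 (log2 3.86 ± 0.41). At 1700019E08Rik, 1.9 kb from the start site, 2.44 and 0 tags per 10 M stood against 90.8 and 134, a ratio of 73.8 (24.7 to 362).

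Of the 7 loci examined by the study, Ptgs2, Cp, Il12a and Ocstamp rose at their strongest peak and Abca1, Scd2 and Acp5 did not pass the test. The KLA level helped to pick these peaks, as defined above. Over all peaks of the 7 loci 31 of 62 were higher and 1 was lower. Since the study itself picked these loci, the count is not independent evidence of a direction. At the Ptgs2 promoter the level was 20.3 and 5.83 in Veh and 124 and 125 in KLA (8.65-fold, log2 3.11 ± 0.44, adjusted p = 2.13e-05), and all 13 peaks of the gene were higher. At Cp, the copper-carrying ferroxidase ceruloplasmin, a peak over the first exon held 6.5 and 8.74 in Veh and 134 and 137 in KLA (17.9-fold). At Il12a, a subunit of interleukin 12, the peak 56.9 kb upstream held no tag in either Veh library and 128 and 106 in KLA, which is at least 73.8-fold higher against a floor of 3 tags over the Veh group.

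The other loci were high before stimulation. At Ocstamp, a gene of osteoclast fusion, the level was 38.2 and 68.5 in Veh and 107 and 122 in KLA (2.19-fold, adjusted p = 0.0435), a call that was lost with TMM (adjusted p = 0.19). At the cholesterol exporter Abca1 it was 123 and 137 in Veh and 168 and 132 in KLA, and the groups overlapped (log2 0.20 ± 0.32 with totals and -0.25 with TMM), while 6 of the 22 Abca1 peaks were higher and 1 was lower. At Acp5, the tartrate-resistant acid phosphatase of osteoclasts, it was 78.0 and 69.9 in Veh and 69.1 and 78.9 in KLA (log2 0.00 ± 0.43 with totals and -0.47 with TMM). At Scd2, a fatty acid desaturase, it was 76.3 and 114 in Veh and 86.8 and 86.3 in KLA. The strongest peak of Fos, an immediate early gene, was likewise not called, with 170 and 185 in Veh and 199 and 205 in KLA (log2 0.19 ± 0.26 with totals and -0.26 with TMM).

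**Figure D2:**
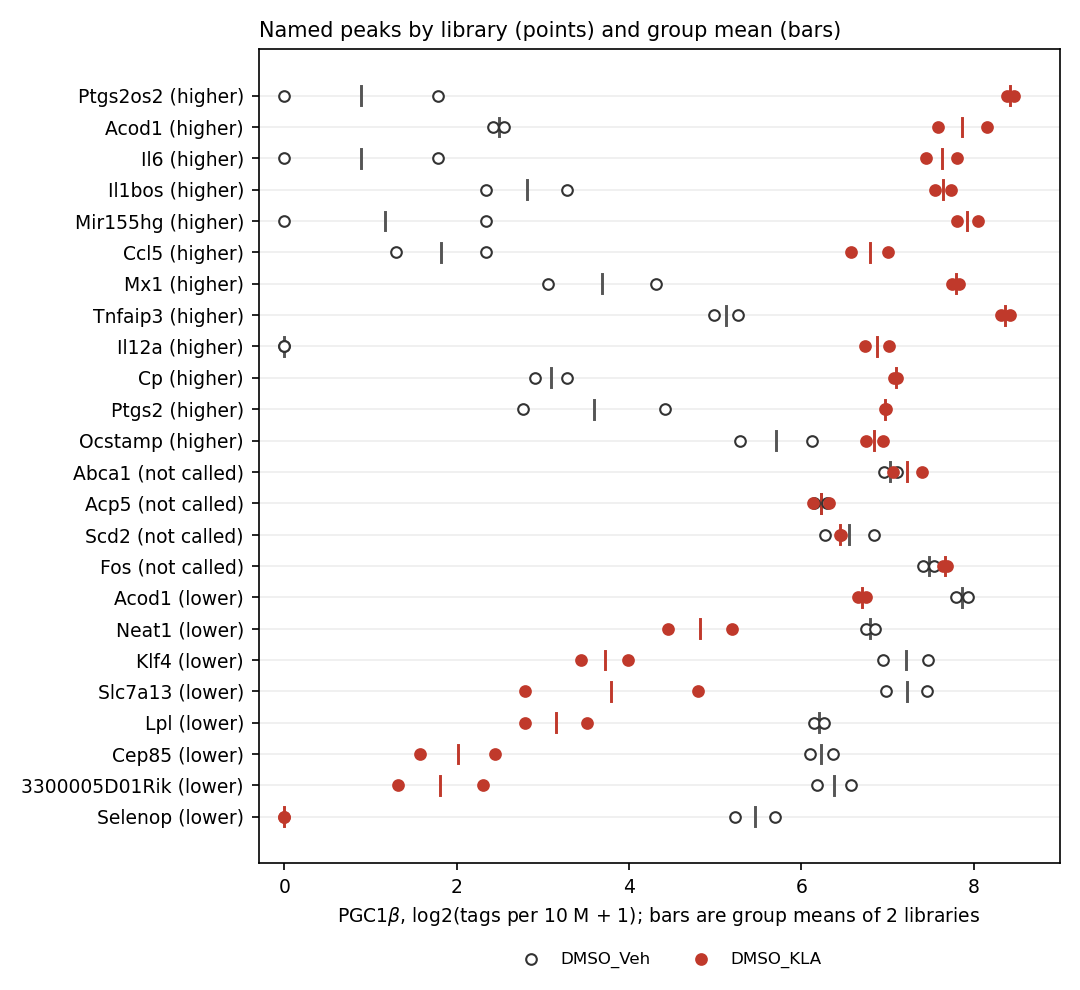
PGC1β level at 24 named peaks on a log2 scale of tags per 10 M plus 1, with 1 point per library (white, DMSO_Veh; red, DMSO_KLA) and a bar at each group's mean of 2 libraries. The first 12 peaks were called higher, the next 4 were not called and the last 8 were called lower, and at the Ptgs2os2, Il6 and Mir155hg peaks 1 Veh library lies at 0.

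The peaks around 4 genes, Ptgs2, Il1b, Acod1 and Klf4, were listed by their distance from the start site, and the genes were chosen after their values were seen. Within 100 kb of the start of Ptgs2, 22 of 24 peaks were higher and none lower, with log2 fold changes from 1.44 to 8.76. Within the same distance of Il1b, 26 of 35 were higher, of which 10 were nearest to Il1bos and 10 to Il1a. Around Acod1, 27 of 45 were higher and 1 was lower. From the Acod1 start to 12.9 kb downstream every peak was higher except this 1, which lay in intron 4 at 4.5 kb.

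The lost Acod1 peak was the strongest of the locus before KLA. It held 221 and 243 tags per 10 M in Veh and 107 and 99.7 in KLA (2.25-fold lower, log2 -1.17 ± 0.29, adjusted p = 0.00577). The next peak on one side, 3.7 kb from the start, held 9.75 and 8.74 in Veh and 138 and 143 in KLA. The one on the other side, 5.7 kb from the start, held 2.44 and 8.74 in Veh and 71.1 and 103 in KLA. H3K27ac in the region matched to the lost peak moved the other way, from 2.49 and 2.62 in Veh to 56.3 and 53.0 in KLA (log2 4.37, adjusted p = 4.9e-19 in edgeR).

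Within 300 kb of Klf4, a zinc-finger factor of monocyte differentiation, 5 of 34 peaks were lower, 1 was higher and 28 were not called. The 5 lower peaks lay 98.0 to 292 kb upstream. The single gained peak, 201 kb upstream, was not called with TMM.

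**Figure D3:**
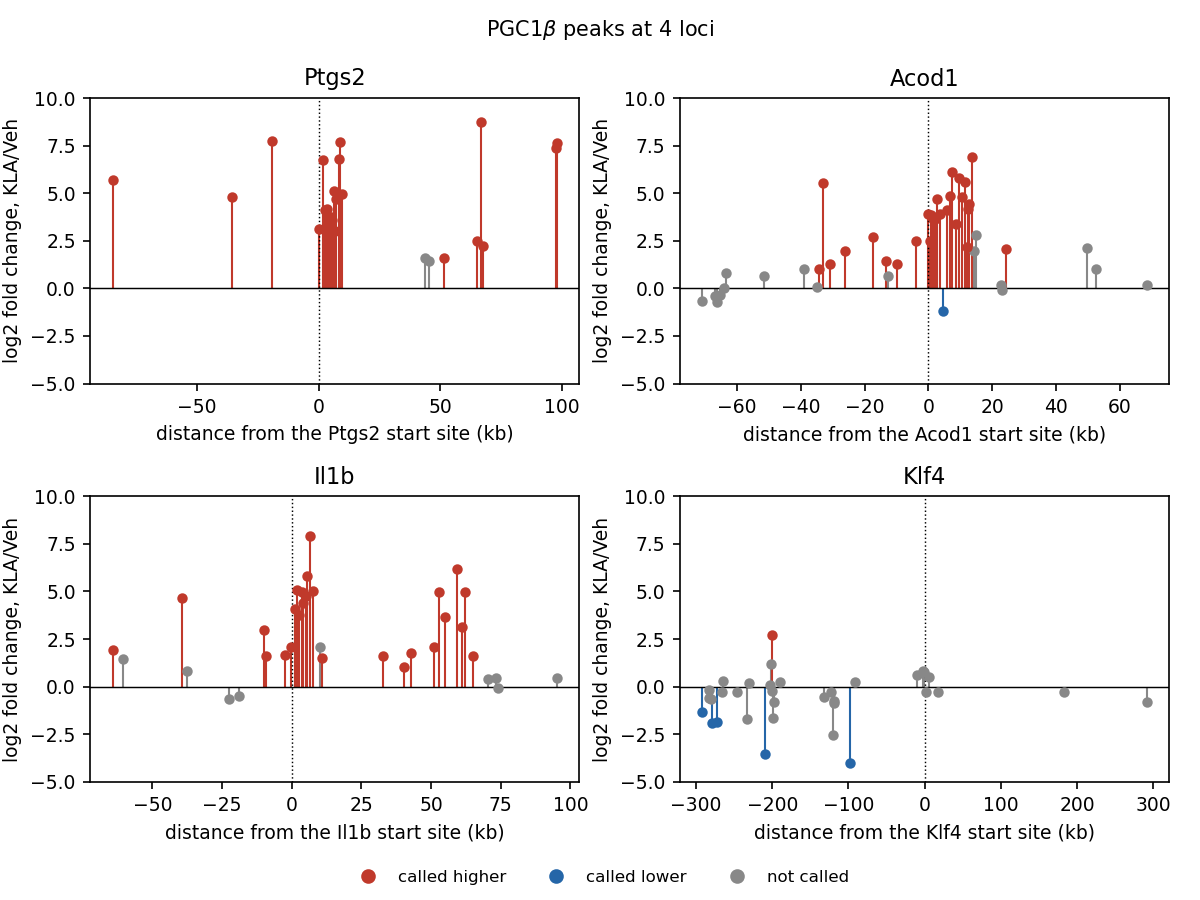
Log2 fold change of PGC1β (DMSO_KLA over DMSO_Veh) at each peak around the start sites of Ptgs2, Acod1, Il1b and Klf4, against the distance from the start site in kb (positive, downstream). Red points were called higher, blue lower and grey not called, and the Ptgs2 and Il1b panels hold no blue point.

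Among the 12 lost peaks of lowest p-value, 1 per gene, the first was nearest to Klf4. This intergenic peak 209 kb upstream of Klf4 held 123 and 176 tags per 10 M in Veh and 9.87 and 14.9 in KLA (11.6-fold lower, log2 -3.54 ± 0.46, adjusted p = 6.76e-06). A peak 6.7 kb from 3300005D01Rik held 71.5 and 94.7 in Veh and 3.95 and 1.49 in KLA, a ratio of 0.032 (0.0066 to 0.095) from 3 KLA tags. A peak in intron 3 of Cep85, a centrosome protein, held 67.4 and 81.6 in Veh and 1.97 and 4.47 in KLA (21.1-fold lower). These peaks were strong in both Veh libraries and near the background in both KLA libraries.

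The peak 37.6 kb from Slc7a13, an amino acid transporter, held 126 and 175 in Veh and 5.92 and 26.8 in KLA (8.65-fold lower). In intron 7 of Lpl, lipoprotein lipase, the level fell from 69.8 and 75.8 to 5.92 and 10.4 (8.53-fold lower). The peak 36.4 kb upstream of Selenop, a selenium carrier, held 36.5 and 51.0 in Veh and no tag in either KLA library, at least 16.4-fold lower. The other 6 of the 12 were nearest to Rnf150, Moxd2, 1700110C19Rik, Asap3, Vps13d and Fam43a, and Moxd2 and Asap3 also held no KLA tag.

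The genes with the most lost peaks were Klf4, Cdkal1, 3300005D01Rik and Rn45s with 5 each, followed by 1700110C19Rik and Mef2a with 4. Rn45s is the ribosomal RNA precursor, whose many near-identical copies make the placement of reads uncertain, and its strongest peak held 167 and 181 in Veh and 80.9 and 67.0 in KLA. Neat1, the RNA scaffold of paraspeckles, lost PGC1β within its transcript, from 106 and 115 to 35.5 and 20.8 (3.98-fold lower).

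Among the gene lists, those of inflammatory effectors held a larger share of gained peaks than the 16.4% of all peaks. These lists were drawn up with results of these data known, so the counts are a description. For cytokines 98 of 186 peaks were higher (52.7%) and none lower, with a median log2 fold change of 1.73 against 0.45 for all peaks. All 10 peaks of Il1a, all 8 of Tnf and 16 of 21 of Il6 were higher, and no peak of Il23a, Osm, Csf1, Csf3 or Tnfsf9 was. At the strongest peak of Il10, an anti-inflammatory cytokine, the level rose from 54.4 and 39.3 to 164 and 265 (4.51-fold). At that of Il12b, which lies 9.9 kb upstream, it rose from 8.93 and 0 to 134 and 131 (23.6-fold).

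For chemokines 82 of 167 peaks were higher (49.1%) and none lower. All 9 peaks of Cxcl10, which attracts T cells, were higher, and its promoter peak rose from 13.0 and 21.9 to 152 and 128 (8.28-fold). At Ccl4 the strongest peak rose from 38.2 and 29.1 to 197 and 252 (6.55-fold). The strongest peak of Ccl3, at its promoter, was not called, with 137 and 182 in Veh and 186 and 234 in KLA (log2 0.40 ± 0.27 with totals and -0.03 with TMM), although 9 of the 17 Ccl3 peaks were higher.

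For enzymes of prostaglandins and other mediators 81 of 157 peaks were higher (51.6%) and 3 were lower. The higher ones lay at 10 of 17 genes, among them Pla2g4a, the phospholipase that frees arachidonic acid, with 22 of 31 peaks and Ptges, a prostaglandin E synthase, with 5 of 6. At Nos2, the inducible nitric oxide synthase, the strongest peak rose from 10.6 and 21.9 to 111 and 171 (9.19-fold). The 3 lower peaks lay at Acod1, Ptgs1 and Alox5. Ptgs1 encodes the constitutive cyclooxygenase and its lower peak held 47.1 and 72.9 in Veh and 21.7 and 7.44 in KLA.

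For subunits and inhibitors of NFκB 118 of 246 peaks were higher (48.0%) and 1 was lower. Nfkbia, the inhibitor IκBα, had 19 of 24 peaks higher, and Birc3, a ubiquitin ligase of the pathway, rose at its promoter from 34.1 and 33.5 to 174 and 226 (5.90-fold). For interferon response genes 149 of 292 were higher (51.0%) and none lower, and their median log2 fold change of 2.20 was the highest of all the lists. A higher peak was found at 23 of the 28 genes with a peak. Many of the higher peaks lay at few genes, with 29 of 35 at Mx1, 21 of 26 at Mx2 and 9 of 16 at Cmpk2, so the share leans on these. Rsad2, the antiviral protein viperin, had 21 of 23 peaks higher, and its strongest peak held 0.812 and 0 in Veh and 96.7 and 43.2 in KLA. No peak of Irf2, Irf9, Stat2, Ifih1 or Oas3 was higher.

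Upstream and metabolic lists were nearer to the share of all peaks. For TLR4 signalling 37 of 146 peaks were higher (25.3%), for the ERK cascade 47 of 221 (21.3%) and for AP-1 and ATF factors 30 of 152 (19.7%), of which 11 lay at Batf. For oxidative metabolism, the programme PGC1β is best known for, 11 of 89 were higher (12.4%) and 3 were lower, and the 3 lay at Ucp2, a mitochondrial uncoupling protein. The strongest of these fell from 85.3 and 127 to 31.6 and 4.47 (log2 -2.61 ± 0.73). For LXR and sterol genes 11 of 116 were higher (9.48%) and for cell cycle genes 8 of 89 (8.99%).

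The macrophage lineage list held 85 higher peaks of 423 (20.1%) and 16 lower ones (3.78%, against 1.23% of all peaks). The lower ones lay at 8 genes, with 5 at Klf4, 3 at Lpl and 2 each at Cebpa and Maf, factors of myeloid differentiation. At Cebpa a peak fell from 105 and 119 to 25.7 and 41.7 (log2 -1.71 ± 0.45). At Maf 19 of 48 peaks were higher and 2 lower. Of the neutrophil markers, S100a8 and Camp each had 1 higher peak of the 4 in that list, from 0 and 0 to 49.3 and 46.1 at S100a8 and from 8.12 and 17.5 to 69.1 and 77.4 at Camp, while the single peaks of Elane and Ltf were not called and Ly6g and Mpo carried no peak. Of the other markers, Ms4a1 of B cells had 3 of 12 peaks higher, Cd8a of T cells 1 of 2, and Col1a2 and Pdgfrb of fibroblasts 1 of 1 and 1 of 3. The part of other cells in the results was not tested.

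By annotation, promoters gained PGC1β less often than other sites. Of 6818 promoter-TSS peaks 7.14% were higher and 0.60% lower, with a median log2 fold change of 0.33, against 17.4% and 1.32% of 22869 intron peaks and 18.6% and 1.27% of 21083 intergenic peaks. The higher share was 7.65% within 1 kb of a TSS, 16.5% from 1 to 10 kb, 18.3% from 10 to 100 kb and 20.7% beyond 100 kb. Peaks in exons (10.3%) and 5' UTRs (9.01%) lay between. Non-coding transcripts had the highest lower share, but from only 8 of 227 peaks (3.52%). No test was made on the classes, and the order of the 4 distances was also seen with TMM, at 3.08%, 8.72%, 9.94% and 11.8%.

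By repeat class, LINE peaks were higher in 639 of 2148 (29.7%), LTR peaks in 622 of 3258 (19.1%) and SINE peaks in 387 of 3199 (12.1%). Among the families, L1 elements had 553 of 1763 peaks higher (31.4%, median log2 1.05) and hAT-Charlie DNA transposons 90 of 296 (30.4%). Peaks on B2 elements, a SINE family, were higher in 129 of 2048 (6.30%), and those on CpG islands in 34 of 600 (5.67%). With TMM the L1 share was 20.6% and the B2 share 2.05%, against 8.71% of all peaks. Reads on repeats can map to several copies.

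**Figure D4:**
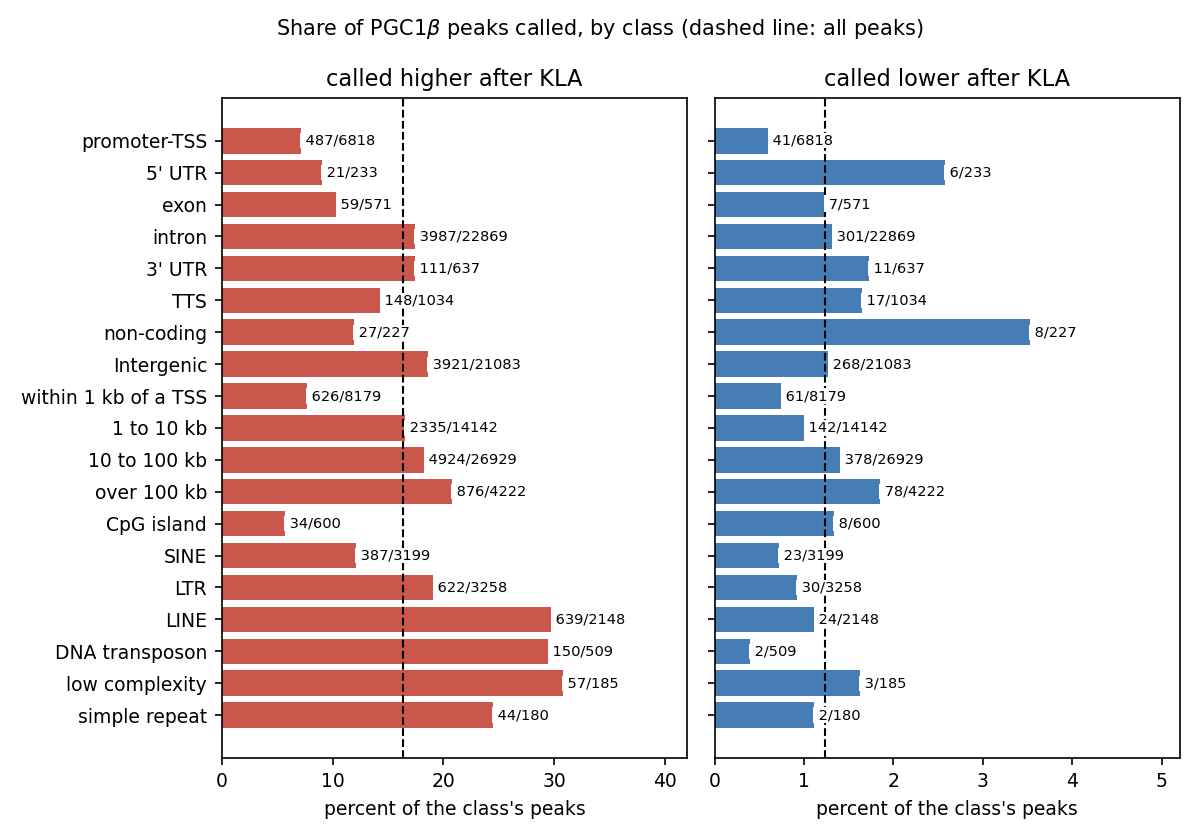
Percent of the PGC1β peaks of each annotation class, distance class and repeat class that were called higher (left, red) or lower (right, blue) after KLA, with the number called and the number of peaks beside each bar. The dashed lines mark all peaks, 16.4% higher and 1.23% lower, and promoter-TSS peaks lie below both.

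The windows of gained peaks were rich in A and T. The median GC content of the 200 bp windows was 43.5% at gained peaks, 49.5% at lost peaks and 47.5% at all peaks. NFκB matches were found in 8.05% of gained windows, 2.28% of lost windows and 3.62% of all windows, C/EBP matches in 24%, 8.80% and 13.8%, and interferon half-sites in 16.4%, 6.68% and 10.2%. AP-1 matches were in 23.8%, 14.1% and 18.1%. PU.1, the lineage factor of macrophages, had the opposite order, with 6.13% of gained, 13.8% of lost and 8.49% of all windows.

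The octamer ATTTGCAT and TGATGCA were added to the search after the Il6 window was seen. The octamer was in 5.19% of gained windows, 0.76% of lost windows and 1.87% of all windows, and 455 of the 1001 peaks with it were higher (45.5%), more than the 36.4% of peaks with an NFκB match. Without an octamer 15.8% of peaks were higher. TGATGCA was in 4.73% of gained and 3.05% of all windows. The letters of a motif follow base composition, and the octamer is AT-rich, so these shares are not independent of the GC content.

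A separate experiment compared KLA with Veh without solvent in 2 libraries each, and it shares no library with this one. Of its own 45675 peaks 16.4% were higher and 6.35% were lower. Of the gained peaks, 5565 had a counterpart with its centre within 100 bp, and of these 3949 were higher there as well, 2 were lower and 97.9% had a fold change above 0. Of 428 matched lost peaks 233 were lower there, none was higher and 96.3% were below 0. The median log2 fold change of the matched gained peaks was 2.17 with DMSO and 1.71 without solvent, and that of the matched lost peaks -2.32 and -1.39. Both sets were chosen for large changes with DMSO, so these medians do not compare the 2 responses. The median difference of the 2 log2 fold changes over all matched peaks was 0.29 with totals and 0.01 with TMM. At the gained peaks it was 0.56 and 0.27, and at the lost peaks -0.89 and -1.18. Over all 34165 matched peaks, which are not independent replicates, the fold changes correlated at 0.78. Within the gained peaks they correlated at 0.72, and within the lost peaks at 0.21. Choosing these sets by their change with DMSO narrows their range, so the correlations cannot be compared directly.

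The 3 peaks of the Ptgs2os2, Il6 and Klf4 loci moved in the same direction in both. The Ptgs2os2 peak held 2.35 and 1.86 in Veh and 174 and 95.5 in KLA without solvent, and the Il6 peak 0.588 and 0 in Veh and 114 and 60.1 in KLA. The Klf4 peak held 65.8 and 90.2 in Veh and 10.9 and 13.7 in KLA.

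The difference between the 2 responses was tested as an interaction over the 34165 matched peaks. edgeR called none of them higher (0.0%) or lower (0.0%) with DMSO, with a lowest adjusted p-value of 0.345, and DESeq2 called none either. At an unadjusted edgeR p-value under 0.05 there were 2539 peaks, 7.43% of the matched peaks. The lowest p-values were at Gm8884, Aldh2 and Lyrm9, where the response was higher with DMSO, and at Elk4, A430033K04Rik and Mx1, where it was lower. At Aldh2, an aldehyde dehydrogenase, the level was 95 and 72.9 in Veh and 126 and 144 in KLA with DMSO, and 59.3 and 68.3 in Veh and 19.7 and 21.7 in KLA without it (interaction log2 2.29 ± 0.49, adjusted p = 0.345 in edgeR). Solvent and experiment cannot be told apart.

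Other factors and H3K27ac were compared at the PGC1β peaks that had a matched peak or region in their tables. These were separate wild-type libraries, 2 per group, with KLA for 6 h by their labels and, apart from H3K27ac, without solvent. The NFκB subunit p65 was higher at 6685 of 7091 gained peaks with a p65 peak (94.3%) and at 57.0% of all p65 peaks, and it was lower at 96 of 266 lost peaks (36.1%) and at 5.43% of all. The acetyltransferase p300 was higher at 6145 of 7392 (83.1%; 42.1% of all p300 peaks) and lower at 296 of 418 lost peaks (70.8%; 12.9% of all). With TMM p65 was higher at 4752 of the 7091 and lower at 204 of the 266, and p300 was higher at 5134 of the 7392. At all tested PGC1β peaks with a match, p65 was then higher at 7135 and lower at 6354 of 29782. There p300 was higher at 8091 of 33839. At the Il6 peak p65 rose from 1.75 and 0.932 to 486 and 482 tags per 10 M, and p300 from 0.627 and 0.657 to 381 and 422.

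The corepressor NCoR and the deacetylase HDAC3 had a matched peak at 7045 and 6945 of the 8761 gained peaks. NCoR was higher at 4221 of the 7045 (59.9%; 23.4% of all NCoR peaks) and lower at 318 of 386 lost peaks (82.4%; 16.7% of all). HDAC3 was higher at 4494 of the 6945 (64.7%; 27.5% of all) and lower at 271 of 356 (76.1%; 11.3% of all). The kinase ERK1 was higher at 1616 of 4291 (37.7%; 10.3% of all) and lower at 50 of 237 (21.1%; 2.53% of all).

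The AP-1 factor Fosl2 was higher at 2206 of 5266 (41.9%; 11.4% of all) and lower at 114 of 296 (38.5%; 4.19% of all). PU.1 was higher at 1226 of 3661 (33.5%; 4.53% of all) and lower at 310 of 401 lost peaks (77.3%; 21.7% of all). At the Klf4 peak PU.1 fell from 364 and 376 to 95.5 and 93.0, and NCoR from 376 and 345 to 54.3 and 49.8. H3K27ac, measured with DMSO in regions of open chromatin, was higher at 486 of 1265 matched gained peaks (38.4%; 6.73% of all regions) and lower at 175 of 236 lost peaks (74.2%; 28.1% of all). With TMM Fosl2 was higher at 3344 and lower at 175 of those peaks, PU.1 higher at 1905 and lower at 217, and H3K27ac higher at 656 and lower at 145. At all tested PGC1β peaks with a match, Fosl2 was then higher at 4571 and lower at 1970 of 23061. There PU.1 was higher at 3064 and lower at 1753 of 26150, and H3K27ac higher at 2281 and lower at 2941 of 15830. Only 14.4% of gained peaks had an H3K27ac region with its centre within 100 bp, against 35.8% of lost peaks.

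**Figure D5:**
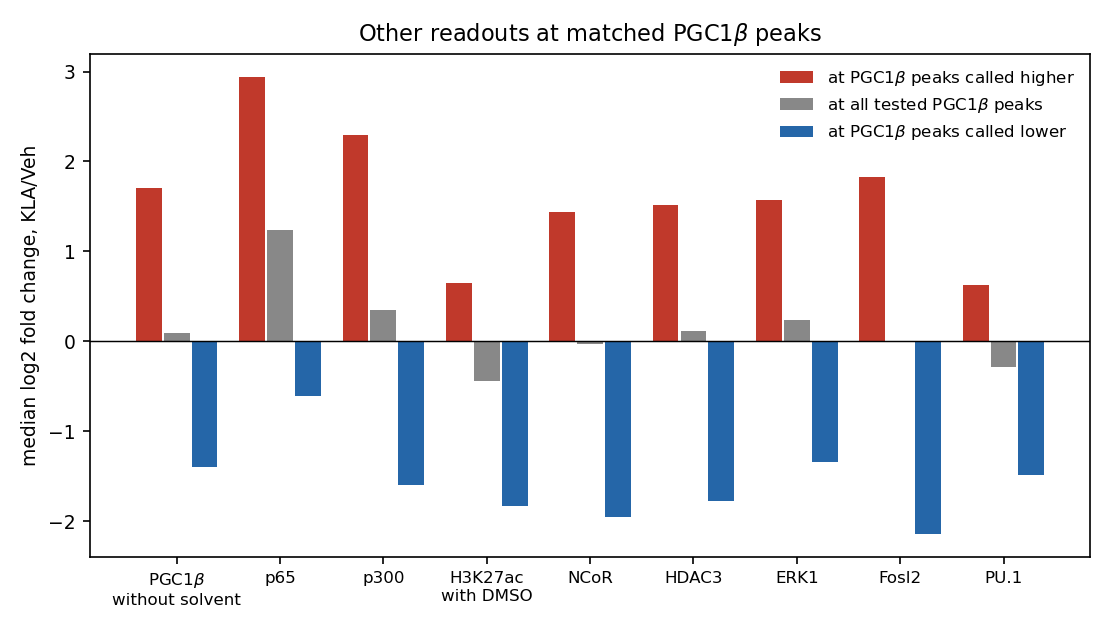
Median log2 fold change (KLA over Veh) of PGC1β without solvent, of 7 other factors and of H3K27ac with DMSO at the peaks matched to PGC1β peaks called higher (red), to all tested PGC1β peaks (grey) and to those called lower (blue), with centres within 100 bp. The medians of p65 are 2.94, 1.24 and -0.60, and those of H3K27ac 0.65, -0.44 and -1.83.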

How the data were processed

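ChIP-seq for PGC1β was carried out in BMDMs fixed with disuccinimidyl glutarate and formaldehyde. The authors deposited raw tag counts per peak and library, from reads aligned to mm10 with Bowtie2 and peaks called with HOMER, filtered by IDR between replicates and merged over conditions. Versions of these programs were not given in the sources used here. Input libraries were not analysed here.

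Counts were scaled by the totals in the column headers. All peaks had at least 4 tags in 1 library (16 was required for H3K27ac regions). edgeR 4.0.16 in R 4.3.3 fitted the 6 libraries of the table by quasi-likelihood, and a peak was called when its adjusted p-value (Benjamini-Hochberg) was below 0.05 and its change exceeded 2-fold. Standard errors were taken as |log2 fold change| over the root of the F statistic. The interaction used 8 libraries. Replicates differed by more than sampling noise (chi-square per peak of 4.05 in Veh and 3.71 in KLA). Peaks of other tables were matched to the nearest centre within 100 bp. For the interaction the 2 peaks had to be nearest to each other (GenomicRanges 1.54.1). For the other comparisons this was not required, so 1 peak or region can match several PGC1β peaks. Nearest genes are those of the deposited annotation. Of the motif windows, 8 lay outside the reference chromosomes. Intervals of ratios are 95% and cover counting error only, since they were formed from tags pooled over the libraries of a group. The spread between replicates is not in them. Reads carried no molecular identifiers.

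The named peaks were the 12 of lowest p-value in each direction (1 per gene), the strongest peaks of list genes, the 7 study loci, the 5 genes with most called peaks in each direction, the 3 lowest interaction p-values each way and 1 peak per annotation class and direction. The strongest peak of a gene had the highest mean level over the 4 DMSO libraries, KLA included. Members, lists and rules were chosen with earlier results of these data known. Alternatives were TMM, DESeq2 1.42.0 size factors and Wald test, tags outside the peaks as library size (added after the data were seen), other filters, the 4 DMSO libraries alone, distal peaks, a replicate block, no fold minimum, each library left out, windows of 100 bp and matching within 50 or 500 bp. The fit was tested on simulated data. Figures were drawn with matplotlib 3.10.9.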

Additional observations from a re-analysis of the deposited data

How the results depend on the processing

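Against 8761 higher and 659 lower calls with library totals, there were 4658 and 1543 with TMM, 4592 and 1621 with DESeq2 size factors in edgeR, and 5015 and 1931 with the DESeq2 Wald test. With the replicate block there were 7705 and 430. The deviations of equal replicate numbers correlated at 0.0097 over all peaks. This value cannot decide whether equal numbers were paired, and the labels do not say. Leaving out 1 library gave 4457 to 6312 higher and 59 to 721 lower calls. No filter, filterByExpr, the 4 DMSO libraries alone, distal peaks, no fold minimum and tags outside the peaks kept both counts within 1.5 times. The interaction had 0 calls each way in each fit, and 1340 to 3477 peaks at an unadjusted p under 0.05 when 1 library was left out. With TMM the promoter share of gained peaks was 4.10% (5.56% with totals), against 12.8% of all peaks. Cytokine peaks were then higher in 39.8%, against 8.71% of all peaks. NFκB matches were in 10.1% of windows gained with TMM, against 3.62% of all windows. In windows of 100 bp they were in 4.76% of those gained with totals and 2.04% of all. H3K27ac scaled by TMM was higher at 51.9% of the matched peaks gained with totals. At all tested PGC1β peaks with a match it was then higher at 2281 of 15830. Of 97 called named peaks, 78 kept their call with TMM, 76 with the Wald test, 90 with the block and 69 to 82 without 1 library. No called named peak changed sign in these fits. Of peaks not called, the log2 fold change turned negative with TMM and the Wald test at Ccl3 (-0.027 and -0.045), Cdkn1a (-0.035 and -0.054), Ms4a1 (-0.063 and -0.084), Hk2 (-0.17 and -0.19), Fos (-0.26 and -0.28), Abca1 (-0.25 and -0.27), Cd3e (-0.22 and -0.24), Elane (-0.20 and -0.22) and Acp5 (-0.47 and -0.48), and its sign changed without 1 library at Cdkn1a (-0.011 to 0.77), Hk2 (-0.059 to 0.52), Cd3e (-0.097 to 0.53), Tef (-0.46 to 0.058), Scd2 (-0.39 to 0.18), Runx1 (-0.23 to 0.19), Irf2 (-0.22 to 0.15) and Acp5 (-0.10 to 0.089). The cause of these changes was not tested. With 2 libraries per group and 5.07 to 12.3 M tags, peaks of few tags have wide errors.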

Other observations

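The remaining lists are read against all peaks, of which 16.4% were higher and 1.23% lower. Of 96 peaks at microRNA host loci 33 were higher (34.4%, median log2 1.13) and none lower. Among them were 9 of 11 at Mir155hg and 5 of 8 at Mir155, which belong to the same locus. Mir147 had 4 of 5, Mir21a 8 of 20, Mir222 3 of 18, Mir221 2 of 14, Mir146b 1 of 2 and Mir99b 1 of 1. None of the 10 peaks of Mir146, the 4 of Mir223 or the 3 of Mirlet7b was higher. The other lists lay near the share of all peaks or below it. For osteoclast genes 28 of 136 were higher (20.6%) and 4 lower, with 16 of 44 higher and 2 lower at Prdm1, a repressor of lymphoid and myeloid genes. The 2 lower peaks of Atp6v0d2, a subunit of the vacuolar proton pump, fell from 110 and 157 to 53.3 and 37.2 at one and from 39.8 and 58.3 to 11.8 and 4.47 at the other. For glycolysis 27 of 127 were higher (21.3%), and at Pfkfb3, an activator of glycolysis, the strongest peak rose from 26.8 and 13.1 to 148 and 153 (7.16-fold). For circadian genes 8 of 52 were higher (15.4%), and for genes of NCoR, HDAC and PGC1 complexes 11 of 111 (9.91%), of which 5 lay at Ncoa3.

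Elk4, an ETS factor, and Lyrm9 were among the peaks of lowest interaction p-value. In intron 1 of Elk4 the level was 22.7 and 23.3 in Veh and 0 and 0 in KLA with DMSO, and 16.5 and 16.7 in Veh and 29.5 and 18.9 in KLA without solvent (interaction adjusted p = 0.345 in edgeR). At Lyrm9 both Veh libraries with DMSO held no tag and the KLA libraries held 124 and 115, against 4.11 and 3.25 in Veh and 36.0 and 25.2 in KLA without solvent.

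Peaks that the deposited table assigns to the KLA and ERK inhibitor peak sets, but not to the untreated set, were higher in 3126 of 5437 (57.5%), and those of the untreated set alone held 417 of the 659 lost peaks. The sets carry the names of the same conditions, so these counts are not independent of the calls.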
